A study of Mus musculus with 6 samples.

Results

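Integrins are the cell surface receptors that tie fibroblasts to the matrix, and focal adhesions are the protein plaques that form on their cytoplasmic tails. The genes described here are 40 chosen by symbol from a list: 18 integrin chains and 22 adaptors, kinases and scaffolds of the focal adhesion. Of these, 39 were among the 16000 genes of the deposited count table, and 38 of the 11972 genes that could be tested. Fermt1 was not analysed here, and Itga4 was too low to test, with 2 counts in wild type and 5 in knockout. The samples were NIH3T3 cells, an established line of mouse embryonic fibroblasts, all held under serum starvation. There were 3 libraries with the genotype WT and 3 with the genotype Rai16 KO, called wild type and knockout below. The labels give neither the lesion nor the clone. Nor do they tell if replicates came from separate cultures, so the p-values rest on a spread that may be technical. The comparison asks which transcripts differ between the genotypes after serum withdrawal.

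An integrin is a pair of 1 alpha and 1 beta chain. The alpha chain largely sets the ligand: some alpha chains bind collagen, some bind laminin, and others bind the RGD tripeptide of fibronectin, vitronectin and related proteins. Talin and kindlin bind the beta chain tail and switch the receptor on, vinculin and the complex of ILK, PINCH and parvin couple it to actin, and kinases such as FAK and Src signal from the plaque. Most alpha chains of fibroblasts pair with beta1, whereas alphav also pairs with beta3, beta5 and beta8.

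Total counts ran from 16741607 to 18368760 per library, and the members took from 0.435% to 0.502% of them. Fam160b2, the symbol under which the targeted Rai16 gene is listed, had between 375 and 440 counts in wild type and between 390 and 410 in knockout, which is −0.12 on the log2 scale with an SE of 0.075 (edgeR's quasi-likelihood test, adjusted p = 0.184). A count over the whole gene does not check a small lesion. Knockout replicate 2 stood apart from the other knockout libraries: its counts differed from theirs by a chi-square of 26.5 to 28.6 per degree of freedom, against 1.72 between replicates 1 and 3. Where leaving it out changed a call or moved a called log2 change of a member by over 1.5 times, the value without it is given too. Of 12 fibroblast markers 11 reached 1 CPM (the count rate scaled to the TMM-adjusted library total), and only Fap stayed below that level. Their sum ran from 13521 to 13587 in the wild-type libraries and from 13811 to 14382 in the knockout ones. Single markers moved both ways within that sum. From wild type to knockout, mean Lum rose from 6.46 to 123 CPM and Col1a2 from 2723 to 3907 CPM. Dcn fell from 3158 to 1702 CPM and Col3a1 from 1242 to 399 CPM.

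Markers of other cell types were low. Summed epithelial markers went from 2.04 to 2.53 CPM in wild type and from 4.67 to 5.94 CPM in knockout, where Krt8 alone of 6 reached 1 CPM. Summed leukocyte markers were between 15.6 and 16.8 CPM in wild type and between 15.1 and 15.9 CPM in knockout, most of it Itgb2 and Cd68, and Csf1r was the only other of 8 to reach 1 CPM. Endothelial markers summed to 4.54 to 5.55 CPM in wild type and 8.36 to 12.5 CPM in knockout, with Cdh5, Vwf and Egfl7 the 3 of 9 at 1 CPM or more. Muscle markers summed to 7.35 to 7.85 CPM in wild type and 3.77 to 34.5 CPM in knockout, with Ttn, Tnnt2, Des and Ckm the 4 of 8 at 1 CPM or more. Laptm5, Tyrobp, Kdr, Cldn5, Cldn4, Esrp1, Myog, Actn2 and Ckm were at 0 in every wild-type library. In knockout, Actn2 (39 counts) and Ckm (405 counts) had counts in replicate 2 alone, and the other 7 averaged at most 0.127 CPM. Des had 82 counts in that library and at most 12 in any other. Without it, the knockout sums ran from 3.77 to 5.16 CPM for muscle markers and from 8.36 to 8.95 CPM for endothelial ones. The part of other cell types in the results was not tested, and in these bulk libraries fewer cells of a kind and less RNA per cell cannot be told apart.

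Most members differed between the genotypes, as most genes did. The members were chosen with earlier results of these data known, so their shares beside those of all genes are descriptive and test nothing. Of the 38 tested, 17 rose in knockout and 9 fell, which is 68.4% of them, against 59.6% of all genes tested. The members that rose were 44.7% of those tested and those that fell 23.7%, against 30.5% and 29.2% of all genes. Changes of at least 2-fold were found in 9 members (23.7%, against 10.9% of all genes). Itga8, Itga3, Itga7, Itgb5, Itgb8 and Lims2, 6 members, were higher (4.32% of all genes), and Itga1, Itga2 and Itga6, 3 members, were lower (6.53% of all genes). All but Lims2 are integrin chains. The median log2 fold change was 0.17 over the members and 0.0028 over all genes, and the median size 0.41 and 0.32. For 31 members, the CPM ranges of the genotypes were apart (81.6%, against 67.6% of all genes). Without knockout replicate 2, 24 members rose and 9 fell, while the share of all genes called went up to 71.1%.

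**Figure D1:**
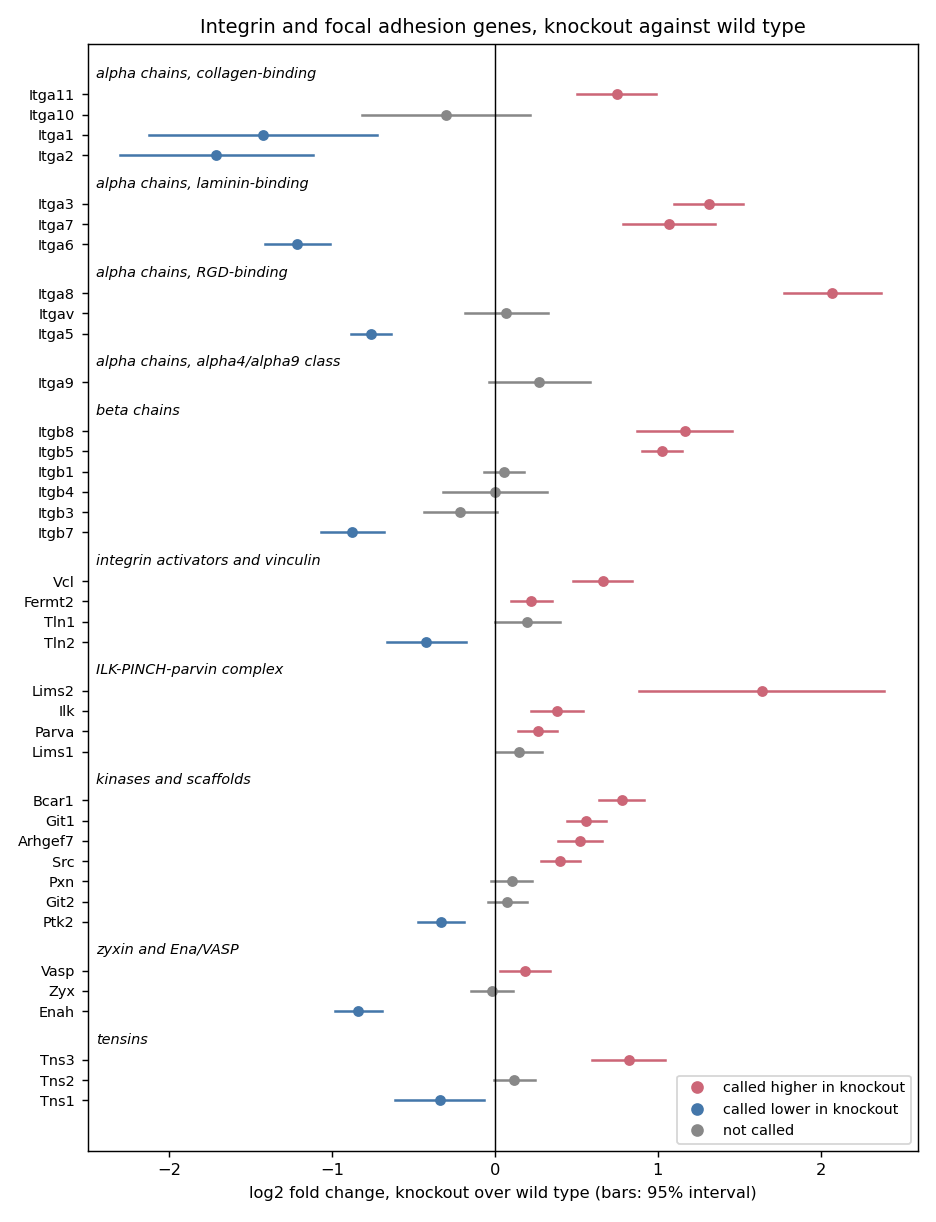
Log2 fold change of the 38 tested members, knockout over wild type, grouped by role, with 95% intervals from the standard error (3 libraries a group). Among the integrin chains, changes run from −1.71 (Itga2) to 2.07 (Itga8), and among the adaptors from −0.84 (Enah) to 1.64 (Lims2).

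The 5 promoter stretches printed next are shown because they belong to members whose changes the account turns on, and because Vcl and Fermt2 are the only members with a sequence here that match the CArG box, the motif of serum response factor. RefSeq (build GRCm38.p6) gave 40 windows for 31 members. In the 250 bases before each start site, 6 motifs were searched on both strands: the CArG box, the GC box GGGCGG, the TEAD motif GGAATG, the AP-1 motif TGANTCA, the motif of NF-Y spelled CCAAT, and the motif of TATA-binding protein spelled TATAAA. Matches of GC boxes may overlap each other. Each stretch starts 250 bases before the start site, ends at position −71 and is written on the strand of the gene, and capitals mark every match.
Vcl, chr14:20929148-20929327, plus strand: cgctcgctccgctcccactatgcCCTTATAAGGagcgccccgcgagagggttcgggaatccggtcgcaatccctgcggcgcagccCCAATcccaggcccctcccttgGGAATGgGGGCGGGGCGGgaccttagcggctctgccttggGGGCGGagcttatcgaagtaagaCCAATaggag
Fermt2, chr14:45530136-45530315, minus strand: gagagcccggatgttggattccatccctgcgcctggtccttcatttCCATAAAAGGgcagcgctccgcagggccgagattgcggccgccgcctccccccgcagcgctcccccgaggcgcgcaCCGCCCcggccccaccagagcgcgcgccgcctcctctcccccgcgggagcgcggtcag
Itga5, chr15:103366862-103367041, minus strand: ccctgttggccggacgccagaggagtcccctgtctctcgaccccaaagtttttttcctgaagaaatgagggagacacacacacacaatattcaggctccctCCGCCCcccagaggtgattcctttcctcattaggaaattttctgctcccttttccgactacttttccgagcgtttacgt
Itga8, chr2:12302015-12302194, minus strand: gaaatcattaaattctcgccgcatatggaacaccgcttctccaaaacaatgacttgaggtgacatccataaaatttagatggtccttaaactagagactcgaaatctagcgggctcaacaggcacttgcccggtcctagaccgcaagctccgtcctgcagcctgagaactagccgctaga
Itgb5, chr16:33829415-33829594, plus strand: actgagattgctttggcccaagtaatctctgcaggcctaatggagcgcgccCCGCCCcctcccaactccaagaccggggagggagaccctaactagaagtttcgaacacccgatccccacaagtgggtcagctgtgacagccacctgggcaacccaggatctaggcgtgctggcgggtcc

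The CArG box of Vcl, CCTTATAAGG, lies at positions −227 to −218 and that of Fermt2, CCATAAAAGG, at −204 to −195. These 2 windows stand among 40 of the members, and 1.47% of all 32851 promoter windows of the same length hold such a match. Vcl also holds TEAD, GC box and CCAAT matches, while the Itga8 window holds no match to any of the 6 motifs. GC boxes were found in 24 of the 40 member windows, against 32.7% of all windows. Some genes have overlapping windows, as Git1, Git2 and Ilk do, so the same box can count more than once. The median GC content was 64.8% in the members' windows and 52.4% in all. Matches describe letters only, and binding was not measured.

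Among the alpha chains that bind RGD, Itga5 fell and Itga8 rose. Itga5, the partner of beta1 in the main fibronectin receptor, had 356, 362 and 354 CPM in wild type and 203, 217 and 214 CPM in knockout. Every knockout library lay below every wild-type library. The level went from 357 ± 4.46 to 211 ± 7.34 CPM (SD, n = 3 each). On the log2 scale the change was −0.76 ± 0.054, where the error of a change is always its SE (edgeR, adjusted p = 5.38e-06). Itga8, whose pair with beta1 binds nephronectin, had 8.21, 9.17 and 6.55 CPM in wild type and 34.9, 29.3 and 36.3 CPM in knockout. All 3 knockout libraries were high, without overlap. This was the largest change in size among the members, 2.07 ± 0.13 on the log2 scale (adjusted p = 2.68e-06). Itgav, the alpha chain of the vitronectin receptors, had 179, 193 and 185 CPM in wild type, and 216, 157 and 212 CPM in knockout. Knockout replicate 2 lay below the wild-type range and the other knockout libraries above it. With all libraries the log2 fold change was 0.07 (95% interval −0.18 to 0.33, adjusted p = 0.605), and without knockout replicate 2 it was 0.21 (adjusted p = 3.26e-07, edgeR).

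The 3 laminin-binding alpha chains all changed, Itga3 and Itga7 upwards and Itga6 downwards (59.6% of all genes were called). Itga3 had 26.8, 22.4 and 24.9 CPM in wild type and 64.5, 54.8 and 65.3 CPM in knockout. The groups were far apart, and the log2 fold change was 1.31 ± 0.093 (adjusted p = 5.2e-06, edgeR). Itga6, which pairs with beta1 or beta4, had 96.5, 98.6 and 98.6 CPM in wild type and 43.0, 36.5 and 47.3 CPM in knockout. No knockout library came near the wild-type level, and the log2 fold change was −1.21 ± 0.088 (adjusted p = 5.94e-06). Itga7, the laminin receptor chain typical of muscle, had 4.86, 5.76 and 4.94 CPM in wild type and 10.1, 10.5 and 12.0 CPM in knockout. It rose by 1.07 ± 0.12 on the log2 scale (adjusted p = 9.79e-05). Itga3 thus ended above Itga6 in knockout (61.5 ± 5.85 against 42.3 ± 5.43 CPM), and per length too (11.7 ± 1.05 against 6.99 ± 0.857 FPKM), where wild type had the reverse order (4.68 ± 0.414 against 16.1 ± 0.209 FPKM).

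Of the 4 collagen-binding alpha chains, 1 rose and 2 fell (75% called, against 59.6% of all genes). Itga11, the fibroblast receptor for fibrillar collagen, had 10.9, 10.1 and 11.0 CPM in wild type and 18.2, 15.7 and 19.9 CPM in knockout. It was higher in each knockout library, by 0.75 ± 0.11 on the log2 scale (adjusted p = 3.36e-04, edgeR). Itga2 had 31, 44 and 46 counts in wild type and 14, 12 and 13 in knockout. That is 2.36 ± 0.490 against 0.715 ± 0.0549 CPM, a log2 fold change of −1.71 ± 0.26 (adjusted p = 4.95e-04). Itga1 had 26, 19 and 29 counts in wild type and 12, 7 and 10 in knockout. Its knockout to wild-type ratio of 0.369 has a counting interval of 0.232 to 0.574 (exact binomial, 95%, which covers counting error only), and its log2 fold change was −1.42 ± 0.31 (adjusted p = 0.00348). Itga10 did not pass (−0.30, 95% interval −0.82 to 0.22). Itga9, a receptor chain for tenascin and other ligands, averaged 4.68 ± 0.205 CPM in knockout against 3.87 ± 0.303 CPM in wild type and did not pass either (adjusted p = 0.116).

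**Figure D2:**
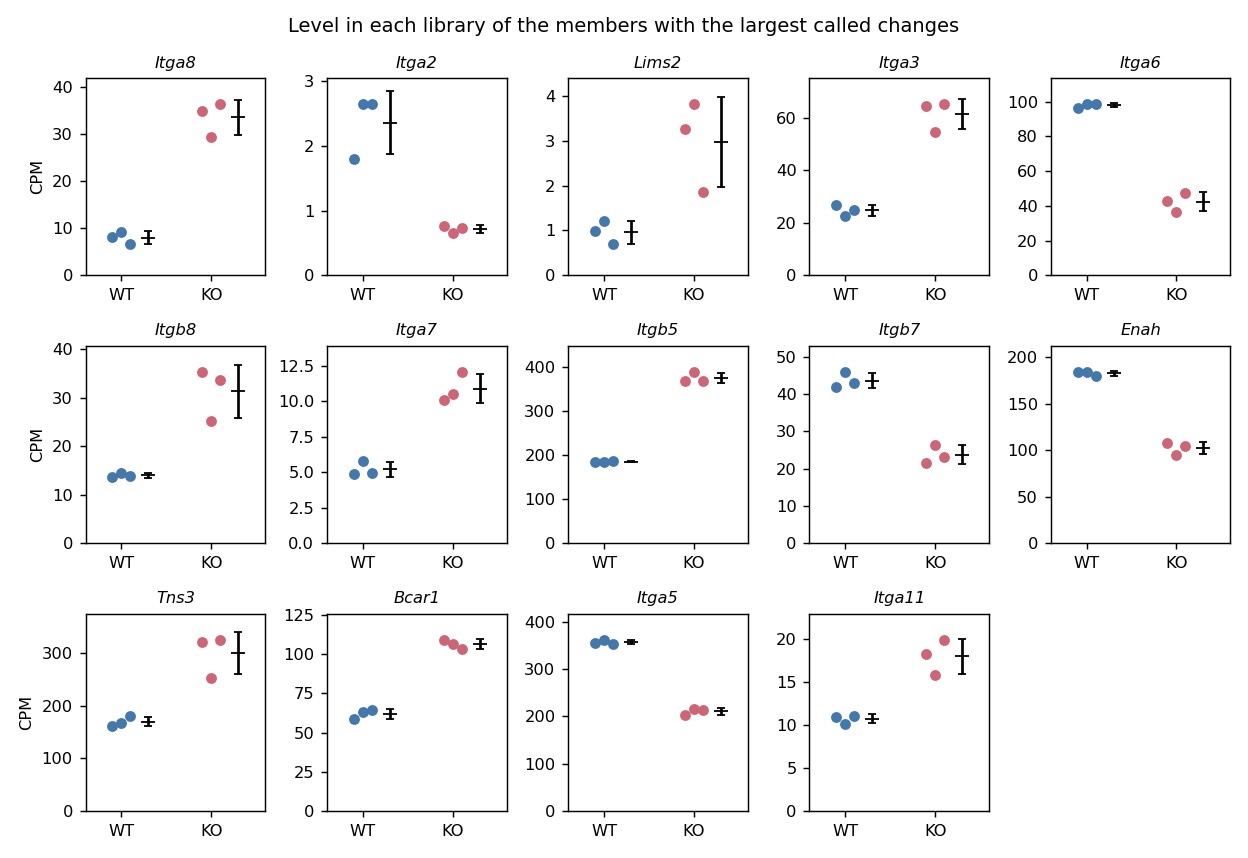
CPM in each of the 3 wild-type (WT) and 3 knockout (KO) libraries for the 14 members with the largest called changes at a mean of at least 1 CPM (which leaves out Itga1), with the mean and SD beside each group. The groups do not overlap in any panel, as in Itga8 (at most 9.17 CPM in wild type and at least 29.3 in knockout).

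Among the beta chains, Itgb5 and Itgb8 rose, Itgb7 fell, and Itgb1, Itgb3 and Itgb4 did not pass the test (50% called, against 59.6% of all genes). Itgb5, which pairs with alphav to bind vitronectin, had 184, 183 and 186 CPM in wild type and 368, 389 and 369 CPM in knockout. The groups were narrow and far apart, and the log2 fold change was 1.03 ± 0.054 (adjusted p = 8.28e-07, edgeR). Itgb8, whose pair with alphav binds latent TGF-beta, had 13.6, 14.5 and 13.8 CPM in wild type and 35.3, 25.1 and 33.6 CPM in knockout. It was lowest of the knockout libraries in replicate 2 and still above wild type there, with a log2 fold change of 1.17 ± 0.13 (adjusted p = 7.12e-05). Itgb7, a chain best known from lymphocytes, had 42.0, 46.0 and 43.0 CPM in wild type and 21.6, 26.5 and 23.3 CPM in knockout. It fell by 0.88 ± 0.086 on the log2 scale (adjusted p = 3.45e-05).

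Itgb1, the beta chain shared by most of these receptors, had 556, 563 and 565 CPM in wild type and 595, 558 and 598 CPM in knockout. The groups overlapped through knockout replicate 2, and the log2 fold change of 0.06 had a 95% interval of −0.07 to 0.18 (adjusted p = 0.404, edgeR). Without that library it was 0.09 (adjusted p = 0.00401). Itgb3, which pairs with alphav, averaged 18.5 ± 2.22 CPM in knockout against 21.4 ± 0.949 CPM in wild type (adjusted p = 0.0918, and 0.0186 without knockout replicate 3). Itgb4, the partner of alpha6 in hemidesmosomes, lay at 4.38 CPM in both groups, with a 95% interval of −0.32 to 0.32 on the log2 scale.

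Set per length, the levels of different chains can be compared, as far as the gene lengths behind the deposited FPKM hold. Those lengths were not checked here. In wild type, Itgb1 stood highest at 133 ± 1.25 FPKM, then Itga5 at 79.6 ± 1.03, Itgb5 at 54.5 ± 0.330, Itgav at 18.2 ± 0.713 and Itga6 at 16.1 ± 0.209 FPKM. In knockout, Itgb1 at 140 ± 4.45 FPKM was followed by Itgb5 at 112 ± 4.11, Itga5 at 47.4 ± 1.74, Itgav at 19.2 ± 3.19 and Itga3 at 11.7 ± 1.05 FPKM. Lower in the knockout order, Itgb7 (4.18 ± 0.456 FPKM) and Itgb8 (4.08 ± 0.694 FPKM) did not differ beyond their spread, and neither did Itga11 (3.35 ± 0.368 FPKM) and Itgb3 (3.11 ± 0.358 FPKM). Itgb5 and Itga5 thus changed places between the genotypes.

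The 12 alpha chains of the members summed to 124.5 ± 1.44 FPKM in wild type and 97.0 ± 4.84 FPKM in knockout, and their 6 beta chains to 201.5 ± 1.52 and 263.5 ± 0.722 FPKM. Chains outside the members are in neither sum. Among them, the alpha chain gene Itga2b had 2.86 FPKM in wild type and 3.15 in knockout, and the beta chain gene Itgb2 4.09 and 2.86 FPKM. The groups did not overlap for either sum (exact permutation test, two-sided, p = 0.1, the smallest that 3 against 3 libraries can give). Within the alpha sum, Itga5 went from 64.0% ± 0.146 to 48.9% ± 3.84, and it was highest among the knockout libraries in replicate 2 (53.4%). Itgav went from 14.6% ± 0.432 to 19.7% ± 2.47, Itga3 from 3.76% ± 0.369 to 12.1% ± 0.542, Itga6 from 12.9% ± 0.172 to 7.19% ± 0.533 and Itga8 from 0.982% ± 0.154 to 5.33% ± 0.306. By ligand class, RGD-binding chains made up 79.5% ± 0.537 in wild type and 74.0% ± 1.11 in knockout, laminin-binding chains 17.3% ± 0.353 and 20.9% ± 0.993, and collagen-binding chains 2.74% ± 0.206 and 4.37% ± 0.220. Each of these class shares separated the groups without overlap, again at an exact permutation p of 0.1 (0.1 after adjustment over the 4 classes). The alpha sum itself fell, so a larger share in knockout need not mean a higher level. Of the laminin-binding chains, Itga3 rose from 4.68 to 11.7 FPKM and Itga7 from 0.773 to 1.63, while Itga6 fell from 16.1 to 6.99 FPKM. In the collagen-binding share, Itga11 went from 1.59% to 3.45% and Itga10 from 0.691% to 0.726%. Itga2 went from 0.265% to 0.104% and Itga1 from 0.192% to 0.0914%. Shares of summed counts, which are not set per length, gave smaller differences than these FPKM shares: −2.94 instead of −5.52 percentage points for RGD-binding and 1.46 instead of 3.64 for laminin-binding chains. Within the beta sum, Itgb1 went from 66.2% ± 0.128 to 53.0% ± 1.55 and Itgb5 from 27.1% ± 0.243 to 42.5% ± 1.68.

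**Figure D3:**
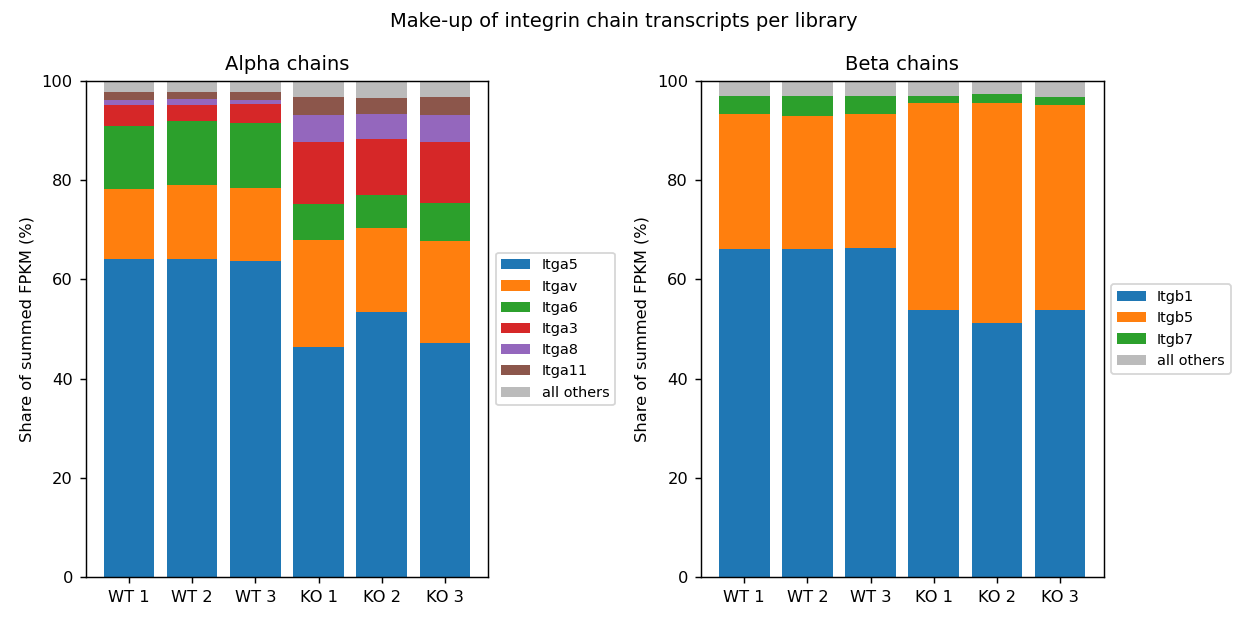
Share of each integrin chain of the members in the summed FPKM of their alpha chains (left) and beta chains (right), per library, with chains under 2% in both groups pooled. Itga5 takes about 64.0% of the alpha sum in wild type and 48.9% in knockout, and Itgb5 27.1% and 42.5% of the beta sum.

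Of the 4 tested genes for talins, kindlin and vinculin, 2 rose and 1 fell (75% called, against 59.6% of all genes). Vcl, encoding vinculin and carrying the CArG box shown above, had 185, 191 and 189 CPM in wild type and 312, 262 and 320 CPM in knockout. All knockout libraries were higher, and the log2 fold change was 0.66 ± 0.080 (adjusted p = 1.19e-04, edgeR). Fermt2 (kindlin-2), the other member with that box, rose from 92.9 ± 2.35 to 109 ± 2.31 CPM, by 0.22 ± 0.054 on the log2 scale. The part of the box in these 2 rises was not tested. The talins moved apart. Tln2 fell from 87.1 ± 3.99 to 65.1 ± 10.3 CPM (−0.42 ± 0.11, adjusted p = 0.00792), and without knockout replicate 2 the change was −0.29 (adjusted p = 1.55e-07). Tln1, the more abundant talin, had 310, 306 and 314 CPM in wild type and 378, 304 and 387 CPM in knockout. It did not pass with all libraries (0.20, adjusted p = 0.0809), and was higher without knockout replicate 2 (0.30, adjusted p = 9.12e-14). The ratio of Tln1 to Tln2 in FPKM was 5.20 in wild type and 8.02 in knockout, without overlap between the groups (exact permutation p = 0.1).

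Of the 4 members in the complex of ILK, PINCH and parvin, 3 rose and none fell at the threshold (75% higher, against 30.5% of all genes). Ilk, the pseudokinase at its centre, had 106, 105 and 108 CPM in wild type and 131, 152 and 131 CPM in knockout. The groups did not overlap, and the log2 fold change was 0.38 ± 0.071 (adjusted p = 0.0015, edgeR). Parva (alpha-parvin), the actin-binding part, rose from 183 ± 3.31 to 220 ± 2.99 CPM (0.26 ± 0.052). Its paralogue Parvb (beta-parvin), outside the members, fell from 96.3 ± 3.23 to 65.5 ± 4.63 CPM (−0.56 ± 0.067, adjusted p = 1.21e-04, edgeR). Parvg, also outside the members, did not pass (−0.51, adjusted p = 0.0897). Parvb and Parvg were named after their values were seen. Lims2, encoding PINCH2, had 17, 20 and 12 counts in wild type and 60, 70 and 33 in knockout. That is 0.957 ± 0.256 against 2.98 ± 1.01 CPM, a log2 fold change of 1.64 ± 0.33 (adjusted p = 0.00243). Its paralogue Lims1 (PINCH1) lay at 117 ± 3.62 and 130 ± 7.15 CPM (0.15, adjusted p = 0.0658), and passed at 0.19 without knockout replicate 2 (adjusted p = 3.99e-05) and at 0.15 with upper-quartile scaling (0.0485). Lims1 remained the main form, at 44.1 times the FPKM of Lims2 in wild type and 16.0 times in knockout.

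Of 7 genes for kinases and scaffolds of the plaque, 4 rose and 1 fell (71.4% called, against 59.6% of all genes). Bcar1 (p130Cas), a docking protein phosphorylated by Src, had 58.4, 62.8 and 64.6 CPM in wild type and 109, 107 and 103 CPM in knockout. The gap between the groups exceeded the spread in both, and the log2 fold change was 0.78 ± 0.061 (adjusted p = 8.87e-06, edgeR). Git1 and Arhgef7 (beta-PIX), which form a scaffold for Rac signalling together, rose from 87.0 ± 1.21 to 128 ± 1.09 CPM and from 49.0 ± 1.34 to 70.5 ± 3.04 CPM. Src rose from 68.5 ± 0.855 to 90.6 ± 2.59 CPM. Ptk2, encoding the focal adhesion kinase FAK, fell from 126 ± 1.17 to 99.8 ± 6.25 CPM (−0.33 ± 0.062, adjusted p = 0.00152). Pxn (paxillin) and Git2 did not pass, at 0.10 and 0.08 on the log2 scale (adjusted p = 0.138 and 0.243). Without knockout replicate 2 both were called higher, at 0.11 and 0.10 (adjusted p = 0.0127 and 0.0274, edgeR).

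The products of zyxin and the Ena/VASP genes act on actin at the adhesion. Among the members, this set and the tensins each had 1 gene higher and 1 lower of 3 (66.7% called in both sets, against 59.6% of all genes). Enah (Mena), which speeds filament growth, had 184, 183 and 179 CPM in wild type and 107, 94.6 and 104 CPM in knockout. It was lower in every knockout library, by −0.84 ± 0.063 on the log2 scale (adjusted p = 7.23e-06, edgeR). Its relative Vasp lay at 77.8 ± 1.93 and 88.5 ± 7.03 CPM and passed narrowly (0.19 ± 0.069, adjusted p = 0.0418). That call was lost in DESeq2 (adjusted p = 0.071), with upper-quartile scaling (0.0551), with a replicate block (0.0821), and without any 1 wild-type library (0.0924 to 0.146) or knockout replicate 3 (0.0515). Without knockout replicate 2 the change was 0.12 (adjusted p = 0.0159). Evl, an Ena/VASP gene outside the members, fell from 82.2 ± 2.68 to 59.4 ± 3.51 CPM (−0.47 ± 0.063, adjusted p = 2.41e-04, edgeR). It was named after its values were seen. Zyx (zyxin), a sensor of tension and the most abundant adaptor per length (84.4 ± 1.18 FPKM in wild type, 84.1 ± 4.23 in knockout), had 372, 378 and 368 CPM in wild type and 371, 383 and 351 CPM in knockout. The groups overlapped, and the 95% interval of the log2 fold change was −0.14 to 0.11.

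Tns3 had 162, 167 and 180 CPM in wild type and 321, 253 and 325 CPM in knockout. It rose in all, by 0.82 ± 0.098 on the log2 scale (adjusted p = 1.13e-04, edgeR). Tns1 had 196, 193 and 201 CPM in wild type and 175, 122 and 169 CPM in knockout, and was called lower (−0.34 ± 0.12, adjusted p = 0.036). Without knockout replicate 2, the lowest library, the change was smaller, −0.19 (adjusted p = 2.54e-06, edgeR). Its call was lost when any 1 wild-type library was left out (adjusted p = 0.0797 to 0.106). Tns2 lay at 198 ± 3.24 and 215 ± 8.36 CPM and was called only without knockout replicate 2 (0.14, adjusted p = 1.64e-04, against 0.0932 with all libraries). The ratio of Tns1 to Tns3 in FPKM was 0.877 in wild type and 0.390 in knockout, with no overlap between the groups (exact permutation p = 0.1).

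The genes beside each member on the chromosome were also examined. For each member, the median log2 fold change of up to 10 tested genes on each side was taken, with the gene order of RefSeq's GRCm38.p6 assembly. It was over 0.2 in size for 10 of 38 members (26.3%), against 47.5% of all tested genes. Beside Enah, 14 of 20 neighbours fell and 1 rose (median −0.42), and beside Tns1 15 of 20 fell and 0 rose (median −0.48). Beside Arhgef7, 14 of 20 rose and 1 fell (median 0.33), and beside Bcar1 11 rose and 2 fell (median 0.30). Tln1, Src and Parva also had rising neighbours (medians of 0.36, 0.21 and 0.22), and Tln2 and Itga5 falling ones (−0.35 and −0.26). The neighbours' part in these results was not tested. For the 8 integrin chains that changed at least 2-fold, the neighbours' median was 0.05 beside Itga8, −0.10 beside Itga2, Itga1 and Itgb8, 0.08 beside Itga3, 0.12 beside Itga6, 0.075 beside Itga7 and 0.15 beside Itgb5. The promoter windows of Itga1 and Itga2 lie close together, at chr13:115102035-115102214 and chr13:114932171-114932350, so their sets of neighbours are not separate. Lims2 rose where its neighbours had a median of −0.22.

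**Figure D4:**
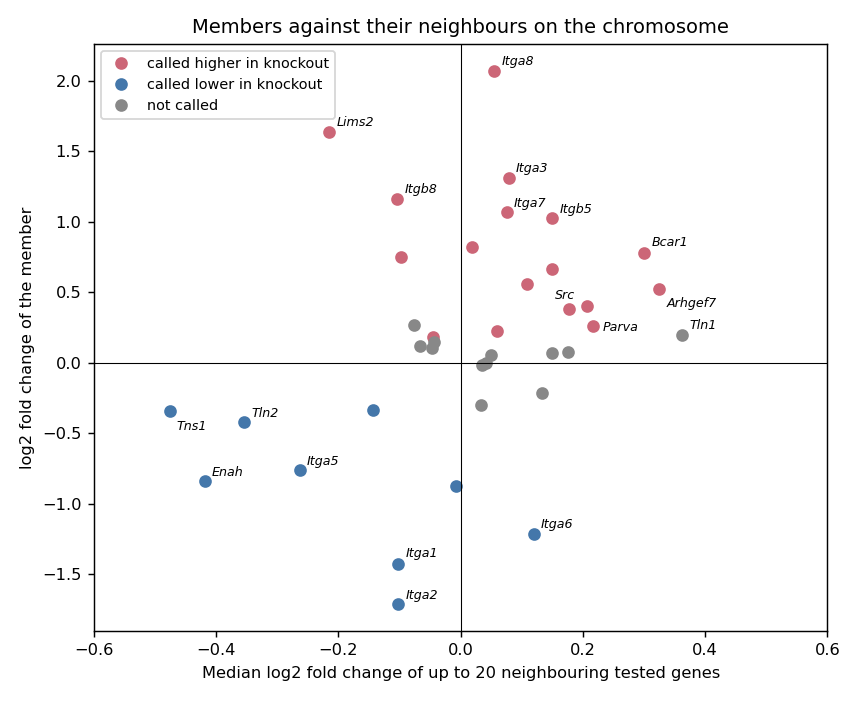
Log2 fold change of each tested member (vertical axis) against the median log2 fold change of up to 20 neighbouring tested genes (horizontal axis). Enah, Tns1, Tln2 and Itga5 lie low beside falling neighbours, while Itga8 (2.07) lies beside neighbours with a median of 0.05.

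Other genes of cell adhesion, a list of 125 outside the members, were called in a like share. That list too was chosen with earlier results of these data known. Of 109 tested, 42 rose and 34 fell (69.7%, against 59.6% of all genes), with a median log2 fold change of 0.05. Among 25 matrix ligands of integrins 9 rose and 10 fell (76% called). The matrix glycoprotein gene Thbs1 rose from 208 ± 8.81 to 3484 ± 539 CPM, Fbln5, an RGD protein of elastic fibres, from 163 ± 5.82 to 411 ± 6.38 CPM, and the laminin chain gene Lama2 from 6.17 ± 0.166 to 15.5 ± 2.89 CPM. Postn (periostin) fell from 31.0 ± 1.14 to 1.08 ± 0.372 CPM, the laminin chain gene Lama4 from 320 ± 6.56 to 94.9 ± 9.23 CPM and Col3a1 from 1242 ± 15.3 to 399 ± 13.4 CPM. Fn1, the fibronectin ligand of alpha5 beta1, fell by 0.60 ± 0.14 on the log2 scale (adjusted p = 0.00449, edgeR), and Npnt, the nephronectin ligand of alpha8 beta1, by 1.36 ± 0.19 (adjusted p = 2.58e-04). These 2 were named after their values were seen. Fn1 had 13801, 14284 and 13867 CPM in wild type and 10219, 6946 and 10422 CPM in knockout, lowest in replicate 2.

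Of 16 membrane partners of integrins 5 rose and 5 fell (62.5% called, near the 59.6% of all genes). Ddr2, a collagen receptor kinase, fell from 566 ± 11.4 to 216 ± 44.2 CPM, with 242, 165 and 241 CPM in the knockout libraries. Of 20 further LIM and actin-linking genes 10 rose and 3 fell (65% called), and of 45 further adaptors and kinases 18 rose and 15 fell (73.3% called). Tns4, the short tensin, rose from 5.55 ± 0.20 to 14.5 ± 1.14 CPM, and Kank3, of a family at the rim of adhesions, from 11.8 ± 1.02 to 30.3 ± 2.66 CPM. Ptk2b (Pyk2), the relative of FAK, fell from 11.2 ± 0.113 to 2.59 ± 0.507 CPM, a log2 fold change of −2.11 ± 0.15 (adjusted p = 4.27e-06, edgeR). Of the 9 integrin chains outside the members 3 were tested, and 1 of them, the leukocyte chain Itgb2, fell (−0.53 ± 0.12 on the log2 scale, adjusted p = 0.00370, edgeR).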

How the data were processed

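RNA was measured in 6 serum-starved NIH3T3 libraries, and both tables were matched to samples by column name (0 columns belonged to other samples). The authors deposited whole-number read counts per gene and FPKM values, the same counts scaled to library total and gene length. Trimmomatic, HISAT2, Cufflinks, HTSeq and DESeq with build GRCm39 are listed per the submitters' processing notes. Versions, annotation and strand setting were not given in the sources used here. Reads of overlapping antisense genes or near-identical copies may not be separated.

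Genes were filtered with filterByExpr, normalised with TMM factors, and compared in edgeR 4.0.16 under R 4.3.3 by its quasi-likelihood test, with Benjamini-Hochberg adjustment over all genes tested and a threshold of 0.05. Standard errors (SE) were derived from each log2 change and the root of its F statistic. The code was tested on simulated data. Alternatives were DESeq2 1.42.0, upper-quartile scaling, no filter, a replicate block, each library left out, and limma 3.58.1 on log2(FPKM + 0.5). DESeq2 left 1 adjusted p undefined, which was kept so. Exact tests over samples were two-sided permutations. The other adhesion genes were written down as a list of 125.

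Members given in full were the 14 with the largest called changes at a mean of at least 1 CPM and the 6 of highest mean FPKM. Of the other adhesion genes, the 5 largest rises and 5 largest falls at 5 CPM or more were named by rule. A few more were named outside that rule. Members and lists were chosen with earlier results of these data known.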

Additional observations from a re-analysis of the deposited data

How the results depend on the processing

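Counts of called genes stayed within 1.5 times those reported for all genes, the integrin chains, the adhesion adaptors and the other adhesion genes, under every alternative run. No member reversed its direction at the threshold under any of them. Leaving out knockout replicate 2 added 7 member calls, all higher in knockout, and every other alternative changed at most 2. As a share of summed counts in place of FPKM, the difference between genotypes (knockout minus wild type, in percentage points) was 1.22 instead of 1.63 for collagen-binding, 1.46 instead of 3.64 for laminin-binding and −2.94 instead of −5.52 for RGD-binding alpha chains. With the replicate number as a block, 16 members rose and 9 fell (6692 calls over all genes, against 7136), and Vasp was the only member whose call changed. Deviations from the group mean had correlations of −0.10, −0.12 and 0.02 between same-numbered libraries. Between differently numbered ones they ran from −0.11 to 0.13. With 3 libraries a group, such deviations are tied to each other, so they cannot settle if the numbers pair the samples. With few counts in Itga1, Itga2 and Lims2, depth limits the precision of their folds.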

Other observations

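Knockout replicate 2 differed from the mean of the other knockout libraries by over 0.5 on the log2 scale in 2 of 38 members (5.26%). The share of all genes tested was 7.18%, but there 0.5 CPM was added to each level first, which was not done for the members. That addition shrinks the changes of genes with few counts, so the 2 shares cannot be compared. The members were Itga1 (−0.67) and Lims2 (0.58), both with few counts. Tns1 (−0.49), Itgb8 (−0.46) and Itgav (−0.45) came next. Of the muscle markers, the creatine kinase gene Ckm had 405 counts in that library and Actn2 (alpha-actinin-2) had 39, against 0 in each of the other 5 libraries. Des (desmin) had 82 counts there and between 3 and 12 elsewhere.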
